A study of Mus musculus with 3 samples.

Results

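KPTC mice, in which Cre deletes p53 and guide RNAs act with Cas9, were compared with KT mice, which lack Cas9, over all 13 guides of a lentiviral pool. Both genotypes were taken whole, by the genotype given in the labels and the deposited tables, which gave 8 of the 17 mice of the series (4 KPTC and 4 KT). These mice held 42226 of the 57536 tumours of at least 500 neoplastic cells, 12043 in KPTC and 30183 in KT. By the usage of this field, T stands for a fluorescent reporter, P for floxed p53 and C for Cas9. The genotypes share the alleles named by K and T and differ in p53 and in Cas9 together, so that the contributions of p53 loss and of Cas9 to any difference cannot be told apart. Tumours were started by delivering 60 µl of the virus pool into the trachea, and lungs were taken about 15 weeks later. All 4 KPTC mice were male, while KT mice 1 and 4 were female and KT mice 2 and 3 were male. Ages at infection are not stated in the sources used, each lung was lysed in bulk, and the mouse numbers follow the identifiers in the tables and pair no mice.

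Each lentiviral vector of the pool carries Cre, 1 guide and a random barcode, so that all cells descending from 1 infected lung cell share a guide and a barcode, and barcode reads count the cells of each tumour (Tuba-seq). The pool held 3 guides against Ambra1, 2 against Rb1, 1 against Apc, 2 against Rbm10 and 5 inert guides (NT1, NT2, Neo1, Neo2 and Neo3). p53 is a transcription factor that halts or kills cells under stress, and its loss goes with more malignant lung adenocarcinoma. Ambra1 brings D-type cyclins to a cullin-RING ubiquitin ligase for degradation, and Rb1 encodes the retinoblastoma protein, which cyclin D kinases inactivate and which holds cells back from S phase. Apc is part of the complex that degrades beta-catenin in Wnt signalling, and Rbm10 is an RNA-binding regulator of splicing. In KT mice no guide can cut, so each guide there measures its own share of the virus and the spread of tumours with no edited gene.

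The barcodes of the largest KPTC tumours are shown because these few clones held a large part of all KPTC cells. Each barcode has 30 bases, of which the 10 in lower case are the same in all barcodes of the 8 mice and the 20 in capitals vary and identify the tumour. Of the 10 largest KPTC tumours, those after the first, which carried Rb1#1 in KPTC mouse 2, had these barcodes in order of size, followed by the largest tumour of KPTC mouse 3:
Rb1#1 in KPTC mouse 1: gcGTTTGtaCTTGTgcCATATtaTTTTAgc
Ambra1#1 in KPTC mouse 4: gcACCTGtaGCTTTgcGCTGTtaCTTCGgc
Rb1#2 in KPTC mouse 2: gcCCCTCtaCACATgcACGAAtaCGTCAgc
Rbm10#1 in KPTC mouse 4: gcTATTGtaTGTCGgcGTTTGtaTCCTAgc
Rb1#2 in KPTC mouse 1: gcTTGTGtaCCTCTgcTGGGAtaTGGGTgc
Rb1#2 in KPTC mouse 1, another tumour: gcCCCCCtaATACCgcAGCACtaCCCGCgc
Ambra1#2 in KPTC mouse 1: gcCAATCtaTGAGTgcGGTTAtaTATCTgc
Ambra1#1 in KPTC mouse 1: gcCGTATtaTCTCGgcAGACGtaCTCTAgc
Ambra1#1 in KPTC mouse 1, another tumour: gcGACCTtaTTATTgcAACGAtaTATTTgc
Ambra1#3 in KPTC mouse 3: gcTGACTtaTACATgcTTTTGtaTCACGgc
Of the 10 largest, 5 carried an Rb1 guide, 4 an Ambra1 guide, 1 an Rbm10 guide and 0 an inert or Apc guide, and together they held 31.0% of all KPTC tumour cells. The Rb1#1 tumour of KPTC mouse 2 had 20568235 cells, from 1539121 reads, and made up 43.9% of all tumour cells of its mouse and 86.0% of its cells with Rb1#1. The Rb1#1 tumour of KPTC mouse 1 had 2919140 cells, or 6.75% of the cells of KPTC mouse 1. The Ambra1#1 tumour of KPTC mouse 4 had 2293272 cells, 22.6% of that lung, and the Rbm10#1 tumour beside it 1187339 cells, 11.7% of that lung. The other 3 tumours above 1000000 cells all carried Rb1#2, with 1515689, 1178007 and 1030509 cells. The largest tumour of KPTC mouse 3, with Ambra1#3, had 860192 cells, 11.2% of that lung and 83.5% of its cells with that guide. The barcodes of 5 of the 10 largest tumours were also listed with the same guide in other mice of the series, at no more than 110 cells there.

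The KT lungs held no clone of this size. Their largest tumours are shown for comparison with the KPTC clones, and carried these barcodes:
Apc#1 in KT mouse 1: gcCATATtaCGTGTgcTTAATtaTAGCAgc
Neo3 in KT mouse 2: gcTTGGGtaTTCTTgcGGGGGtaGGTGGgc
NT2 in KT mouse 3: gcGCTAGtaTCGTTgcGGCGGtaTCTCGgc
Rbm10#2 in KT mouse 4: gcGCGGAtaTGAACgcTAAGGtaCAGAGgc
They had 53911, 102339, 289002 and 239712 cells in KT mice 1 to 4. The NT2 barcode of KT mouse 3 was also listed in other mice, at up to 880 cells. Inert guides marked 2 of these 4 tumours, whereas the largest tumour of every KPTC mouse carried an Rb1 or Ambra1 guide. The largest KPTC tumour was 71.2 times the largest KT tumour, and 36 KPTC tumours exceeded the latter. Of these 36 tumours, 14 carried Rb1 guides and 13 Ambra1 guides, each spread over all 4 KPTC mice, beside 4 with Rbm10, 3 with inert and 2 with Apc guides. KPTC mice 1 to 4 contributed 20, 9, 2 and 5 of them.

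KPTC mice 3 and 4 stood apart from mice 1 and 2 by their few tumours. Their values are also written with up to 15 digits, beside up to 8 in the other mice, and whether they were processed separately is not stated in the sources used. Tumours of at least 500 cells numbered 5668, 4509, 852 and 1014 in KPTC mice 1 to 4 and 13332, 6444, 8328 and 2079 in KT mice 1 to 4. Reads per mouse ran from 338871 to 3898398 in KPTC and from 1438335 to 10456649 in KT. The minimum of 500 cells equalled 3.80 reads in KPTC mouse 1 and 18.4 to 465 reads in the other mice, so small tumours are least precise in KPTC mouse 1. In 24.1% to 29.1% of tumours of a mouse, the same guide and barcode were also listed in another of the 17 mice. This sharing was uneven between guides. With such barcodes left out, the mean log2 ratio of Ambra1#1 to inert tumours in number fell from -3.01 to -5.23 in KPTC and from -3.17 to -5.50 in KT. Ambra1#2 fell from -3.34 to -5.26 in KPTC. Rb1#1 was at -2.32 and then -2.15 in KPTC, and at -3.32 and then -3.18 in KT. Calls, directions and leading guides that changed with these barcodes left out are given below. Nothing beside the mouse serves as a replicate, and 4 against 4 mice allow 70 splits, so the smallest two-sided exact permutation p is 0.029.

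Whole-lung levels were compared by 6 measures, of which none passed. The log2 number of tumours was -1.52 in KPTC relative to KT (0.349-fold), with overlap (exact permutation, p = 0.14) and at 0.031 with a minimum of 5000 cells, and summed cells, in units of 1000000, were 43.2, 46.8, 7.68 and 10.1 in KPTC mice and 26.8, 10.5, 17.7 and 3.38 in KT mice, which overlapped (exact permutation, p = 0.46). The largest tumour of each lung was 23.6-fold larger in KPTC on the log2 mean, with all 4 KPTC mice above every KT mouse (exact permutation, p = 0.029, adjusted over 6 measures 0.057). Inert tumours, which carry no targeted gene, had a log-normal mean size (the mean of a log-normal distribution fitted to the sizes) of 2057, 2266, 2771 and 1795 cells in KPTC mice and 1797, 1478, 1765 and 1326 cells in KT mice. KPTC mouse 4 lay just below the highest KT mouse, and the 1.39-fold difference missed the threshold (exact permutation, adjusted p = 0.086). The 95th percentile of inert size was 9350, 13851, 17179 and 8016 cells in KPTC and 7296, 5097, 5713 and 4210 cells in KT, a 2.11-fold difference without overlap. At the 99th percentile the difference was 2.90-fold, with 30252, 31415, 58780 and 39294 cells against 17808, 9462, 17171 and 10764. Both gave the smallest p and an adjusted p of 0.057 (exact permutation), short of the threshold of 0.05. Without KPTC mouse 4 the largest tumour, the inert mean size and both percentiles passed (exact permutation, adjusted p = 0.043), the mean size at a log2 difference of 0.57. These 4 also passed at a minimum of 1000 cells, but at a minimum of 200 cells the inert mean size differed 1.10-fold and the inert 95th percentile 1.35-fold with overlap (exact permutation, p = 0.43 and 0.20). At 5000 cells the inert 95th and 99th percentiles overlapped (exact permutation, p = 0.086 and 0.11).

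Cells were concentrated in far fewer tumours in KPTC than in KT lungs. The number of tumours, counted from the largest down, that held 50% of all cells was 63, 4, 22 and 6 in KPTC mice 1 to 4 and 1554, 1034, 942 and 251 in KT mice 1 to 4. As a share of each lung's tumours this was 1.11%, 0.0887%, 2.58% and 0.592% in KPTC and 11.7%, 16.0%, 11.3% and 12.1% in KT. Every KPTC mouse lay below every KT mouse (1.09% ± 1.08 against 12.8% ± 2.20, SD, n = 4 each, exact permutation, adjusted over 5 measures p = 0.036). In KPTC mouse 2, the 4 tumours that held 50% of the cells came from a lung with 4509 tumours.

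The other measures of concentration moved the same way. The 10 largest tumours held 23.7%, 56.3%, 36.4% and 58.3% of the cells in KPTC mice and 1.65%, 4.99%, 7.28% and 15.0% in KT mice (43.7% ± 16.6 against 7.23% ± 5.68, SD, n = 4). The largest 1% of tumours held 48.5%, 66.5%, 34.7% and 58.3% in KPTC and 12.4%, 12.4%, 20.3% and 20.0% in KT (52.0% ± 13.7 against 16.3% ± 4.49, SD, n = 4). The Gini coefficient, which is 0 where all tumours are equal and nears 1 where a single tumour holds everything, was 0.847, 0.894, 0.828 and 0.881 in KPTC and 0.542, 0.469, 0.554 and 0.515 in KT. These 3 measures had no overlap and passed (exact permutation, adjusted p = 0.036 each). The share of the single largest tumour was 6.75%, 43.9%, 11.2% and 22.6% in KPTC and 0.201%, 0.977%, 1.63% and 7.08% in KT. KPTC mouse 1 lay below KT mouse 4 there, and the difference did not pass (21.1% ± 16.6 against 2.47% ± 3.13, SD, n = 4, exact permutation, adjusted p = 0.057).

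**Figure D1:**
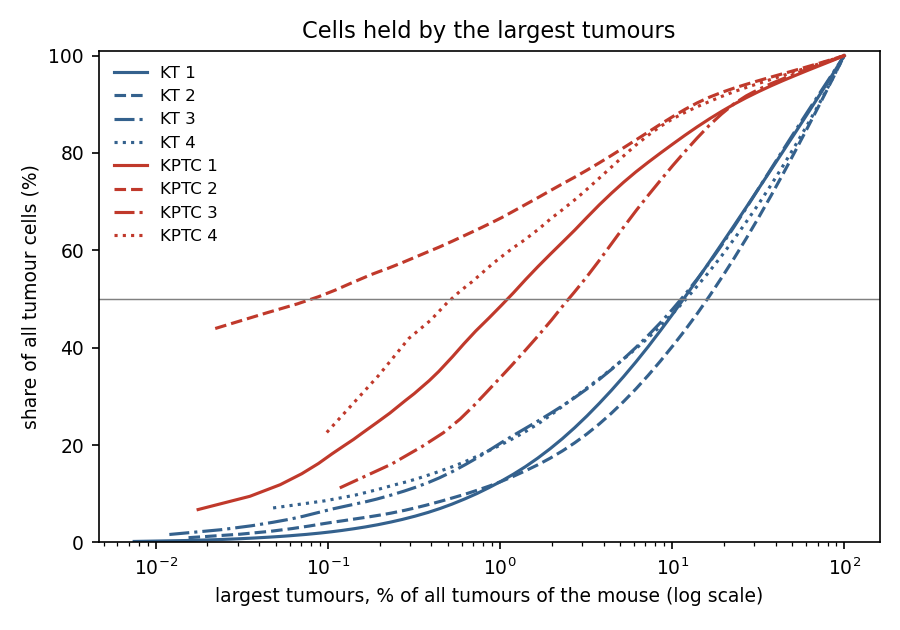
Percent of all tumour cells of a lung (vertical axis) held by its largest tumours, counted from the largest down and given as percent of its tumours of at least 500 cells on a log axis (horizontal axis), 1 line per mouse. The 4 KPTC lines lie above the 4 KT lines, reaching 34.7% to 66.5% of cells at 1% of the tumours beside 12.4% to 20.3% in KT.

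The genotypes also lay apart further down the size order. The largest 10% of tumours held 81.7%, 87.4%, 77.2% and 86.9% of the cells in KPTC mice and 46.7%, 40.2%, 47.8% and 46.9% in KT mice, without overlap. The 4 calls held when every lung was reduced to the same number of its largest tumours, 852, which is the number in KPTC mouse 3 (exact permutation, adjusted p = 0.036). They ended at a minimum of 5000 cells, with values given in the closing section, and without any 1 KT mouse (exact permutation, adjusted p = 0.071), although all KPTC mice still lay beyond the KT mice left. Without KT mouse 1, for example, the difference in the share of the largest 1% was 34.4 points.

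Set against KTC mice, which carry Cas9 and intact p53 (9 mice), KPTC lungs were also the more concentrated on average. This comparison was chosen after its values were seen. The largest 1% of tumours held 52.0% in KPTC and 18.5% ± 4.77 in KTC (SD, n = 9, range 11.5% to 28.5%), and the Gini coefficient was 0.862 ± 0.031 in KPTC and 0.627 ± 0.033 in KTC (SD, n = 4 and 9). In both measures all 4 KPTC mice lay above all 9 KTC mice (exact permutation, adjusted p = 0.0023). The 10 largest tumours held 43.7% in KPTC and 20.4% in KTC, which reached 53.1% and overlapped (2 of 4 KPTC mice above every KTC mouse, exact permutation, adjusted p = 0.029). The largest tumour held 21.1% and 5.02%, with KTC up to 18.7% and the same overlap (exact permutation, adjusted p = 0.021).

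The guides of the largest tumours were counted next. Of the 100 largest tumours of each mouse, Ambra1 guides marked 44, 36, 30 and 30 in KPTC mice and 14, 16, 18 and 8 in KT mice. Rb1 guides marked 31, 35, 20 and 31 in KPTC and 10, 11, 14 and 13 in KT. Inert guides, which have 5 of the 13 guides, marked 11, 13, 29 and 24 in KPTC and 61, 53, 47 and 59 in KT. For these 3 classes no KPTC mouse overlapped with a KT mouse: Ambra1 35.0% ± 6.63 against 14.0% ± 4.32, Rb1 29.3% ± 6.45 against 12.0% ± 1.83 and inert 19.3% ± 8.66 against 55.0% ± 6.32 (SD, n = 4, exact permutation, adjusted over 5 classes p = 0.048 each). Rbm10 guides marked 6, 10, 14 and 10 in KPTC and 13, 18, 14 and 16 in KT, and Apc#1 marked 8, 6, 7 and 5 against 2, 2, 7 and 4, both overlapping (exact permutation, adjusted p = 0.11 and 0.14). Without KT mouse 1, 2 or 4 the 3 calls ended, as did that of Rb1 without KT mouse 3 (exact permutation, adjusted p 0.071 to 0.095). Without KT mouse 1, for example, the differences were 21.0 points for Ambra1, 16.6 for Rb1 and -33.8 for inert guides. Apc#1 passed without KT mouse 3 (3.83 points, exact permutation, adjusted p = 0.048) and Rbm10 without KPTC mouse 3 (-6.58 points, exact permutation, adjusted p = 0.036). With barcodes of 1 mouse only, Apc (-0.25) and Rbm10 (0.25) turned direction, as Apc did with the 50 largest (-0.50) and the 200 largest (-0.625). The Ambra1 difference shrank to 8.50 points with barcodes of 1 mouse only (12.8% against 4.25%) and still passed (exact permutation, adjusted p = 0.048).

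**Figure D2:**
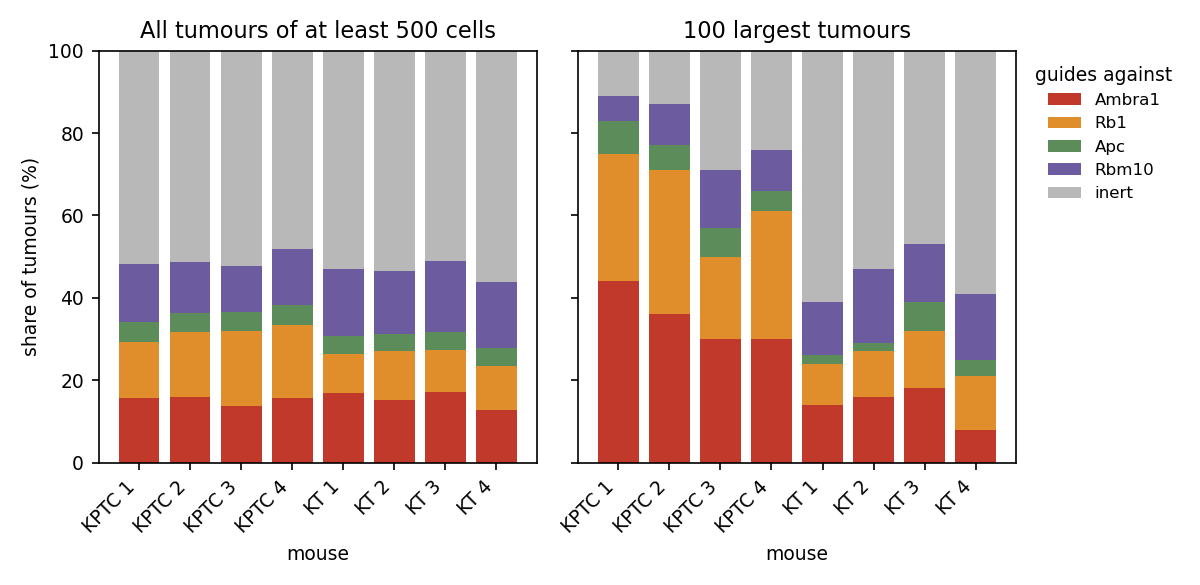
Percent of tumours (vertical axis) that carry guides of each class, Ambra1, Rb1, Apc, Rbm10 or inert, as 1 stacked bar per KPTC and KT mouse, for all tumours of at least 500 cells (left) and for the 100 largest of each mouse (right). On the left inert guides fill 48.1% to 56.1% of every bar, and on the right inert guides fill 11% to 29% in KPTC mice and 47% to 61% in KT mice.

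The same change was seen at the very top of each lung. Of the 10 largest tumours of a mouse, Rb1 guides marked 40%, 40%, 50% and 50% in KPTC and 10%, 10%, 0% and 0% in KT. Ambra1 guides marked 30%, 50%, 40% and 30% in KPTC and 10%, 20%, 0% and 0% in KT, while inert guides marked 0%, 0%, 10% and 0% in KPTC and 40%, 50%, 60% and 70% in KT. None of these 3 classes overlapped between the genotypes (exact permutation, adjusted p = 0.048 each).

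Among all tumours of at least 500 cells, the classes differed much less. Ambra1 guides marked 15.3% of tumours in KPTC and 15.5% in KT (means of 4 mice, exact permutation, p = 0.83), so the class that marked 35.0% of the 100 largest was no more frequent overall. Rb1 guides marked 16.3% ± 2.20 against 10.6% ± 1.02 (SD, n = 4), Apc#1 4.74% against 4.26% and Rbm10 12.8% against 16.3%, each without overlap (exact permutation, adjusted p = 0.048). Inert guides marked 50.9% and 53.4% (exact permutation, adjusted p = 0.14). These shares were not taken at other minimum sizes. The relative number of Apc#1, given below, overlapped at 200 cells and with barcodes of 1 mouse only.

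Ambra1 and Rb1 guides also led among tumours of at least 100000 cells in KPTC mice. Tumours of at least 100000 cells numbered 73, 34, 13 and 11 in KPTC mice and 0, 1, 7 and 1 in KT mice, and held 52.5%, 64.4%, 40.9% and 59.5% of all cells in KPTC and 0%, 0.977%, 5.97% and 7.08% in KT. Of the 131 in KPTC, 57 (43.5%) carried Ambra1 guides, 46 (35.1%) Rb1 guides, 14 (10.7%) inert guides, 9 the Apc guide and 5 Rbm10 guides. Of the 9 in KT, 5 carried inert guides, 2 Apc#1, 2 Rbm10 guides and 0 an Ambra1 or Rb1 guide. In KPTC mouse 1 Ambra1 led Rb1 by 33 to 21 and in mouse 2 by 16 to 13, while in mice 3 and 4 Rb1 led by 6 to 5 and 6 to 3. All 7 tumours of at least 1000000 cells lay in KPTC mice, in mice 1, 2 and 4, and 5 of them carried Rb1 guides.

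Summed over all tumours, inert guides held a smaller and Rb1 guides a larger part of the cells in every KPTC mouse than in any KT mouse. Inert guides held 21.8%, 15.0%, 25.1% and 12.7% of all tumour cells in KPTC and 54.6%, 53.8%, 51.6% and 53.2% in KT (18.7% ± 5.78 against 53.3% ± 1.26, SD, n = 4). Rb1 guides held 29.8%, 61.3%, 27.9% and 28.5% in KPTC and 9.64%, 11.4%, 9.82% and 10.6% in KT. Neither class overlapped, but at an adjusted p of 0.071 (exact permutation, p = 0.029) neither passed. Ambra1 guides held 33.4%, 14.7%, 35.0% and 39.2% in KPTC and 15.2%, 15.0%, 15.7% and 10.8% in KT, with KPTC mouse 2 below 3 of the KT mice (exact permutation, adjusted p = 0.14). In that mouse the single Rb1#1 clone of 43.9% of the cells lowers the share of every other guide. With the largest tumour of each of the 5 classes left out in every mouse, the differences were 16.0 points for the share of all cells of Ambra1, 21.1 for Rb1 and -29.3 for inert guides. These 3 then passed, as did Rbm10 at -7.19. Ambra1 also passed without KPTC mouse 2 (21.7 points), Rb1 and inert guides without KPTC mouse 2 or 4, and Rbm10 without KPTC mouse 4 (-9.65 points, exact permutation, adjusted p = 0.048 each). With barcodes of 1 mouse only the Ambra1 share fell to 12.9% in KPTC and 5.06% in KT, a difference of 7.88 points that passed (exact permutation, adjusted p = 0.048). Rbm10 guides held 8.52%, 6.54%, 7.85% and 16.1% in KPTC and 15.6%, 15.8%, 16.7% and 20.9% in KT (exact permutation, adjusted p = 0.14), and Apc#1 2.45% to 6.49% and 3.94% to 6.07% (exact permutation, p = 0.49).

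Concentration was then measured within each class of guides, which pools guides of 1 gene or the 5 inert guides. The largest 1% of Ambra1 tumours held 31.9%, 37.4%, 32.0% and 66.9% of Ambra1 cells in KPTC mice (42.0% ± 16.8, SD, n = 4) and 13.8% ± 1.88 in KT mice. For Rb1 the shares were 53.6%, 84.8%, 27.6% and 39.7% in KPTC (51.4% ± 24.6) and 12.8% ± 3.86 in KT (SD, n = 4). Both were without overlap but did not pass over 5 classes (exact permutation, p = 0.029, adjusted 0.071). Apc#1 was at 41.4% ± 12.0 against 17.1% ± 10.5 (adjusted p = 0.11 by exact permutation) and Rbm10 at 38.8% ± 24.4 against 20.9% ± 12.7 (exact permutation, p = 0.31, SD, n = 4). Inert tumours were at 35.1%, 16.7%, 26.0% and 22.7% in KPTC and 12.2%, 11.6%, 21.6% and 16.0% in KT (exact permutation, adjusted p = 0.095). In KPTC mice 3 and 4 the largest 1% of a targeted class is only 1 or 2 tumours. With the largest 5% the Ambra1, Rb1 and inert classes passed, at differences of 37.8, 46.7 and 19.0 points for concentration within class, and with the largest 1% they passed at a minimum of 200 cells. With the largest 1% at 1000 cells the inert difference fell to 6.28 points (exact permutation, p = 0.26). At 5000 cells it was 3.80, that of Ambra1 17.5 and that of Apc 10.6 points, all with overlap (exact permutation, p = 0.37, 0.23 and 0.43).

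**Figure D3:**
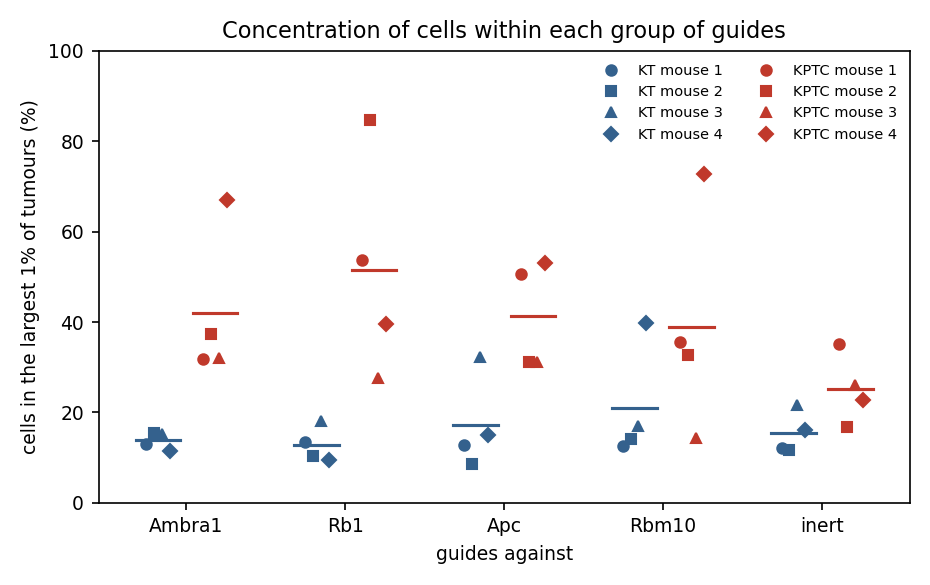
Percent of the cells of a class held by its largest 1% of tumours (vertical axis), by class, with 1 point per KPTC (red) or KT (blue) mouse and short lines at the means. Ambra1 and Rb1 points of KPTC lie above all KT points of their class, and the inert points of the genotypes overlap.

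By the Gini coefficient, inert tumours of at least 500 cells were also less even in KPTC than in KT mice. Their coefficient was 0.699 ± 0.035 in KPTC and 0.515 ± 0.042 in KT (SD, n = 4), with 4 of 4 KPTC mice above every KT mouse (exact permutation, unadjusted p = 0.029). At other minimum sizes this coefficient was not taken. For tumours with any targeted guide it was 0.885 ± 0.040 and 0.525 ± 0.038 (SD, n = 4). Within each mouse, the targeted minus the inert coefficient was 0.166, 0.255, 0.091 and 0.232 in KPTC mice and -0.012, -0.00059, -0.0020 and 0.053 in KT mice. Targeted tumours, taken as 1 pool over the 8 guides, were the less even in all 4 KPTC mice, by more than in any KT mouse (exact permutation, p = 0.029). This test was chosen after its values were seen. The pool mixes guides that differ in mean size in KPTC, so the contrast does not give the evenness within a class. The same contrast for the share of the largest 1% gave 9.75, 55.4, 4.08 and 33.7 points in KPTC and 0.641, 1.58, -2.53 and 8.40 points in KT, which overlapped (exact permutation, p = 0.057).

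The 13 guides were ranked in each mouse by log-normal mean size. Ambra1#1 ranked 1, 2, 1 and 1 in KPTC mice and Rb1#1 3, 3, 3 and 2, with mean ranks of 1.25 and 2.75. Ambra1#2 followed at a mean rank of 3.25, Ambra1#3 at 4.75, Rb1#2 at 5, Apc#1 at 6, Rbm10#1 at 6.5 and Rbm10#2 at 8.25, and the 5 inert guides ended the order at 10 to 11.25. In KT mice Ambra1#1 ranked 11 to 13, and the lowest mean rank there was that of Apc#1 at 3.25. Of the 8 targeted guides, 8, 8, 7 and 7 had a larger mean than all 5 inert guides in KPTC mice 1 to 4, against 1, 0, 1 and 4 in KT mice.

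**Figure D4:**
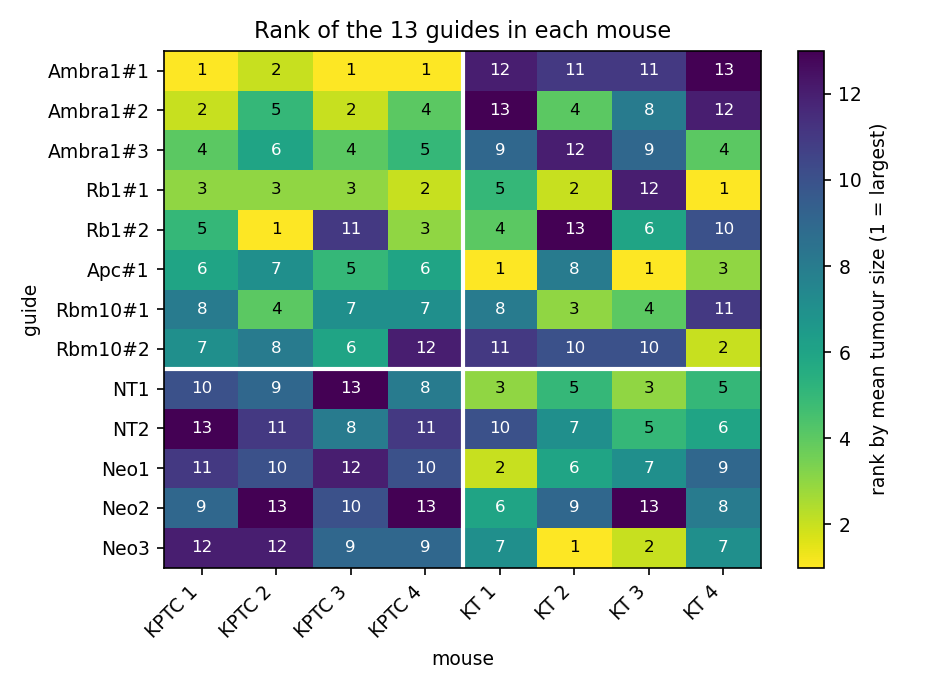
Rank of each of the 13 guides by log-normal mean tumour size (1 is the largest), with 1 column per KPTC and KT mouse. Ambra1#1 and Rb1#1 rank between 1 and 3 in all 4 KPTC mice, whereas Rb1#2 ranges from 1 to 11, and in KT mice the order changes from mouse to mouse.

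The order of guides by size was more alike between KPTC mice than between KT mice, while their order by burden was about as alike in both. As a description, Spearman's rho of the 13 guides' sizes between 2 mice of a genotype was 0.51 to 0.88 over the 6 KPTC pairs (median 0.79) and 0.016 to 0.40 over the 6 KT pairs (median 0.20). For burden it was 0.52 to 0.85 over the KPTC pairs (median 0.69) and 0.62 to 0.96 over the KT pairs (median 0.80). The largest guide mean of a mouse exceeded the smallest 7.88-fold, 3.57-fold, 11.0-fold and 9.71-fold in KPTC mice, and 1.22-fold to 1.49-fold in KT mice. Ranks in KT therefore order guides that differ little in size.

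The size of each guide was set against all inert tumours of the same mouse as a log2 ratio, and 6 of 8 targeted guides (75%) were larger in KPTC than in KT, with 0 of 8 (0%) smaller. The same 6 (75%) did not overlap between the genotypes. Of the inert guides, each against the other 4, 0 of 5 (0%) passed in either direction and 0 of 5 lay apart without overlap, with differences from -0.06 to 0.05. NT1 was the least steady of them in KPTC, at -0.70 in mouse 3 and 0.63 in mouse 4.

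Ambra1#1 gave the largest increase and Ambra1#2 the next. This order turned with barcodes of 1 mouse only, where the log2 difference was 2.72 for Ambra1#2 and 2.15 for Ambra1#1. Tumours with Ambra1#1 had a mean size of 15512, 4792, 20094 and 14285 cells in KPTC mice 1 to 4, and 1126 to 1662 cells in KT mice. The log2 ratio to inert tumours was 2.91, 1.07, 2.82 and 2.96 in KPTC and -0.24 to -0.09 in KT, a difference of 2.61 (exact permutation, adjusted over 8 guides p = 0.038). KPTC mouse 2 lay far below the other 3 KPTC mice and still above every KT mouse. Ambra1#2 was at 1.84, 0.63, 2.49 and 1.74 in KPTC (difference 1.78) and Ambra1#3, below Rb1#1, at 1.38, 0.52, 1.92 and 1.39 (difference 1.34, exact permutation, adjusted p = 0.038 for both). In each of the 4 KPTC mice Ambra1#1 had the largest mean of the 3 Ambra1 guides and Ambra1#3 the smallest. The order by log2 difference also depended on the minimum size. At a minimum of 5000 cells Ambra1#3 led at 2.10, beside 1.67 for Rb1#1, 1.49 for Ambra1#1 and 1.20 for Ambra1#2. None of these passed there (exact permutation, adjusted p = 0.057 each). At a minimum of 200 cells Ambra1#1 led at 2.31, and Rb1#1 (1.48) exceeded Ambra1#2 (1.15).

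The Rb1 guides disagreed in 1 mouse. Rb1#1 tumours had a mean of 6298, 3932, 12760 and 7288 cells in KPTC mice, with log2 ratios of 1.61, 0.79, 2.18 and 2.01 and a difference from KT of 1.58 (exact permutation, adjusted p = 0.038). Rb1#2 was at 1.24, 1.62 and 1.95 in KPTC mice 1, 2 and 4 but at -0.06 in mouse 3, where its mean of 2684 cells, from 60 tumours, lay below the inert mean. Its difference of 1.23 missed the threshold (exact permutation, adjusted p = 0.13) and was 1.65 without KPTC mouse 3, where the guide passed (exact permutation, adjusted p = 0.033). Rb1#2 also passed at 200 cells (0.81) and with the number-matched tumours described below (1.67, exact permutation, adjusted p = 0.033 and 0.038). At 1000 and 5000 cells it overlapped, at 1.65 and 1.24 (exact permutation, adjusted p = 0.065 and 0.15). In KPTC mouse 2 Rb1#2 had the largest mean of the targeted guides and Ambra1#1 the next.

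Apc#1 was at 0.96, 0.39, 1.23 and 1.05 in KPTC and -0.06 to 0.25 in KT, a difference of 0.78 without overlap (exact permutation, adjusted p = 0.038). Rbm10#1 was at 0.32, 0.67, 0.86 and 1.02, a difference of 0.74 (exact permutation, adjusted p = 0.038). Rbm10#2 was at 0.87, 0.27, 0.88 and -0.20 in KPTC and -0.18 to 0.22 in KT, so that KPTC mouse 4 lay below all KT mice (difference 0.49, exact permutation, adjusted p = 0.20). Without any 1 KT mouse no targeted guide passed for size (exact permutation, adjusted p = 0.076 for the 6 guides), while the log2 differences were 2.59 to 2.64 for Ambra1#1 and 0.71 to 0.76 for Rbm10#1. Size counts only tumours past 500 cells. When the largest tumours were taken in numbers matched to the KT ratio, the differences in relative size were 3.04 for Rb1#1, 2.80 for Ambra1#1, 1.67 for Rb1#2, 1.53 for Ambra1#2 and 1.39 for Ambra1#3, so that Rb1#1 and not Ambra1#1 led, and Rbm10#1 missed the threshold at 0.40 (exact permutation, adjusted p = 0.065). Apc#1 missed it with the geometric mean as size (exact permutation, adjusted p = 0.057). With barcodes of 1 mouse only it was at 0.99 with overlap and also missed the threshold (exact permutation, adjusted p = 0.076). No guide passed at a minimum of 5000 cells.

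**Figure D5:**
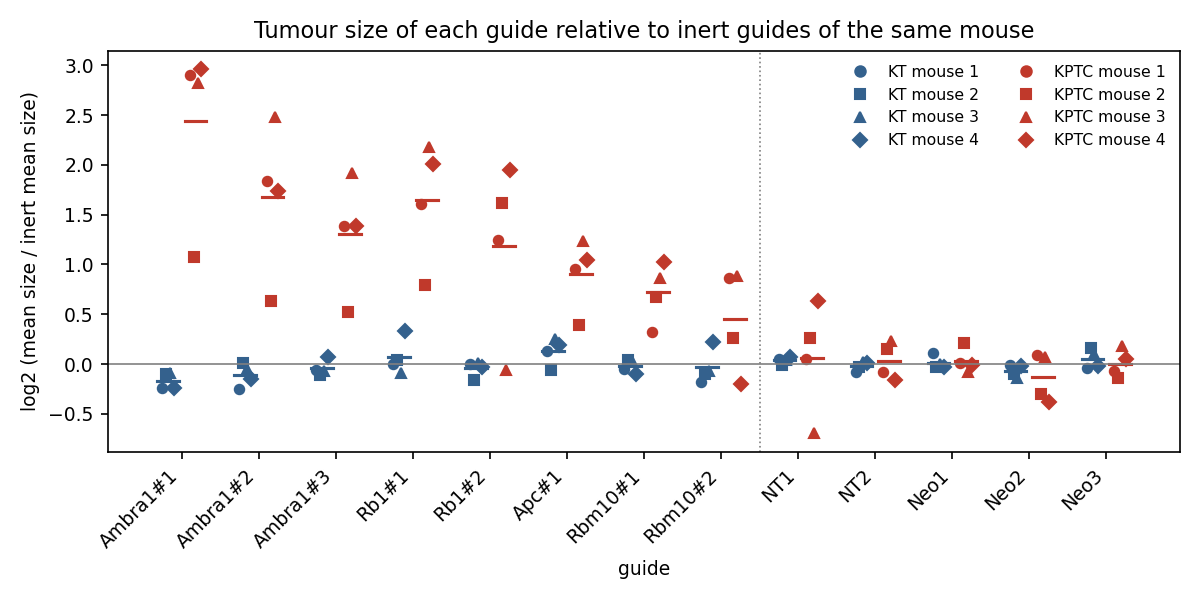
Log2 ratio of each guide's log-normal mean tumour size to inert tumours of the same mouse (vertical axis) for the 13 guides (horizontal axis), with 1 point per KPTC (red) and KT (blue) mouse and short lines at the means. KT points lie near 0, between -0.25 and 0.33, and the Ambra1#1 points of KPTC reach 2.96.

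Summed cells (burden) put Rb1#1 first. By burden, Rb1#1 ranked 1, 1, 1 and 2 in KPTC mice and 7 to 11 in KT mice, and Ambra1#1 2, 3, 3 and 1 against 7 to 11. The inert guide Neo2, which marks the most tumours, ranked 1 or 2 in KT mice and 5 to 9 in KPTC mice. The log2 ratio of Rb1#1 cells to all inert cells was -0.18, 1.77, -0.00085 and 0.36 in KPTC mice and -3.52 to -2.95 in KT mice. In KPTC mice 2 and 4 this guide thus held more cells than the 5 inert guides together, as Ambra1#1 did in mouse 4 (1.35) and Rbm10#1 in mouse 4 (0.25). For burden 6 of 8 guides (75%) were higher in KPTC, 0 of 8 lower and 6 of 8 without overlap. The differences were 3.77 for Rb1#1, 3.09 for Ambra1#1, 2.26 for Rb1#2, 2.08 for Ambra1#3, 1.84 for Ambra1#2 and 1.27 for Apc#1 (exact permutation, adjusted p = 0.038 each), beside 0.89 for Rbm10#1 and -0.16 for Rbm10#2 (exact permutation, adjusted p = 0.098 and 0.51). With the largest tumour of each guide left out, the difference in relative burden of Rb1#1 was 3.01 and that of Ambra1#1 2.80. Rb1#2 lost its call without any 1 KT mouse (exact permutation, adjusted p = 0.076). With barcodes of 1 mouse only, the differences were 2.98 for Rb1#1, 2.59 for Ambra1#2, 2.31 for Rb1#2 and 2.21 for Ambra1#1. Apc#1 then missed the threshold (0.93, exact permutation, adjusted p = 0.098), and Rbm10#1 passed (1.10, exact permutation, adjusted p = 0.038). Rbm10#1 also passed at minimums of 1000 cells (1.03) and 5000 cells (1.36, exact permutation, adjusted p = 0.033 each). At 200 cells it overlapped (0.74, exact permutation, adjusted p = 0.16). Inert guides gave 0 of 5 calls for burden and 0 of 5 without overlap.

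The weight of single clones in a guide's burden varied between guides and mice. The largest Rb1#1 tumour held 35.1%, 86.0%, 19.5% and 22.6% of that guide's cells in KPTC mice and 2.75% to 8.89% in KT mice. For Ambra1#1 the values were 11.9%, 16.9%, 16.5% and 69.7% in KPTC and 3.15% to 13.1% in KT, so KPTC mouse 1 lay within the KT range. In KPTC mouse 4 the largest Rbm10#1 tumour held 77.2% of that guide's cells, and in KT mouse 4 the largest Rbm10#2 tumour held 65.0%. These shares were not tested, and a guide had as few as 22 tumours in KPTC mouse 3.

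At a minimum of 500 cells no targeted guide passed for relative number in either direction (0 of 8, 0%), since 4 guides at the smallest p of 0.029 reach only an adjusted p of 0.057 over 8 (exact permutation). At an unadjusted p under 0.05, 4 of 8 (50%) did not overlap, namely Rb1#1 (difference 0.996), Rb1#2 (0.31) and Apc#1 (0.22), higher in KPTC, and Rbm10#2 (-0.35), lower. Among inert guides 1 of 5 (20%) did not overlap, NT1 at -0.17, beside 0.22 for Apc#1 and 0.31 for Rb1#2 in the other direction. Rb1#1 was at -2.71, -2.39, -2.20 and -2 in KPTC and -3.54 to -2.94 in KT. The 3 Ambra1 guides were at differences of 0.16, -0.12 and 0.08. These values depended on the barcodes kept and on the minimum size. With barcodes of 1 mouse only, Apc#1 was at 0.010 with overlap (exact permutation, p = 0.94). Rb1#1 (1.02), Rb1#2 (0.32) and Rbm10#2 (-0.40) still did not overlap there. At 200 cells Apc#1 (0.086) and Rb1#2 (0.12) overlapped (exact permutation, p = 0.14 and 0.23). At 200 cells 5 guides passed, Ambra1#1 (-0.48), Ambra1#2 (-0.43), Rbm10#1 (-0.39) and Rbm10#2 (-0.46) lower and Rb1#1 (0.55) higher in KPTC (exact permutation, adjusted p = 0.046 each). At 5000 cells Ambra1#1 was at 2.13, Rb1#1 at 1.86 and Rb1#2 at 1.62 without overlap, and Ambra1#2 at 1.36 with overlap. No guide was past the threshold there.

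The upper end of each guide's sizes was compared by its 95th percentile against inert tumours, and 5 of 8 targeted guides (62.5%) were higher and did not overlap. These were Ambra1#1 (2.82), Ambra1#2 (2.34), Ambra1#3 (1.95), Apc#1 (0.92) and Rbm10#1 (0.68, exact permutation, adjusted p = 0.046 each). Rb1#1 was at 2.55, 0.48, 2.76 and 3.13 in KPTC and reached 0.62 in KT mouse 4, and its difference of 2.18 missed the threshold (exact permutation, adjusted p = 0.076). In KPTC mouse 2, Rb1#1 thus had the largest tumour of all lungs and a 95th percentile within the KT range. Rbm10#2 was at 1.31 in KPTC mouse 1 and -1.64 in mouse 4 (difference -0.05). All 5 calls ended without any 1 KT mouse (exact permutation, adjusted p 0.076 to 0.091) and without KPTC mouse 1 or 4 (0.057 to 0.076). They also ended at minimums of 1000 and 5000 cells, with barcodes of 1 mouse only and with the largest tumour of each guide left out, where Ambra1#3 fell to 1.09 with overlap (exact permutation, adjusted p = 0.26). Without KPTC mouse 2 or 3 the count was again 5, without Apc#1 and with Rb1#1 or Rb1#2 in its place. Over size, number, burden and the 95th percentile together, 21 of 32 values of targeted guides (65.6%) and 1 of 20 values of inert guides (5%) did not overlap between the genotypes.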

How the data were processed

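Values were deposited by the authors as a signal per tumour, namely the estimated number of neoplastic cells for each mouse, guide and barcode. Per the labels' protocols, each lung received 3 spiked-in benchmark lines (500000 cells per line) to turn barcode reads, amplified from 32 µg of DNA, into cells. The sources used do not state how barcodes were clustered. Within each mouse all values (100%, tolerance 0.1) were whole multiples of 1 step, taken as the worth of 1 read. PCR reads are not independent molecules, so these read numbers overstate precision.

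From these values, tumours of at least 500 cells were kept. For each guide the log-normal maximum-likelihood mean size, the number, the summed cells (burden) and the 95th percentile were taken as log2 ratios to all inert tumours of the same mouse. Mice were the replicates. Genotypes were compared by permuting mouse labels over all splits (exact, two-sided), and p-values were adjusted by Benjamini-Hochberg over 8 targeted guides, 5 inert guides, 5 classes, 5 concentration measures or 6 level measures, with a threshold of 0.05. All 13 guides were named, with no selection, and of single tumours the largest of each mouse and the 10 largest of KPTC. The members and lists were chosen with earlier results of these data known. Relative size was tested on real inert tumours of at least 500 cells, with those of KPTC mice enlarged by a known fold after this cut. Measures of concentration were tested on constructed sizes with known answers. Relative number, burden and the 95th percentile were not tested in this way. Alternatives were minimum sizes of 200, 1000 and 5000 cells, at least 10 reads, each mouse or inert guide left out, male mice only, KPTC mice 1 and 2 or 3 and 4 only, near barcodes or barcodes of several mice left out, the largest tumour left out, other size measures and other numbers of largest tumours. Python 3.11.15, numpy 2.4.6, pandas 2.3.3 and scipy 1.17.1 were used. No genome build is involved, guide target sites were not used here, and all 4 gene symbols (4 of 4) matched the RefSeq mouse gene table. The barcode of 1 tumour is not reported here.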

Additional observations from a re-analysis of the deposited data

Results flagged for a closer look

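In 100 groups of 4 mice, 11 had 1 mouse far from the other 3, where chance gives about 5%. The Ambra1#1 relative size was 1.07 in KPTC mouse 2 and 2.82 to 2.96 in the other KPTC mice, on the log2 scale. The Ambra1#3 relative number was -4.34 in KPTC mouse 3, beside -3.61 to -3.50, and its relative burden -0.90 in the same mouse, beside -2.29 to -2.06. In this mouse Ambra1#3 had 22 tumours, of which the largest held 83.5% of the guide's cells. The Rbm10#2 relative burden was -2.66 in KPTC mouse 1, beside -3.74 to -3.64.

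Single large clones stood in 4 of the other groups. Rb1 guides held 61.3% of the cells in KPTC mouse 2, which has the Rb1#1 tumour of 20568235 cells, and 27.9% to 29.8% in the other KPTC mice. The largest 1% of Ambra1 tumours held 66.9% of Ambra1 cells in KPTC mouse 4, beside 31.9% to 37.4%. In KT mouse 4, which lacks Cas9, the largest 1% of Rbm10 tumours held 39.8% of Rbm10 cells, beside 12.6% to 16.9%, and the Rbm10#2 relative burden was -2.29, beside -3.72 to -3.51. The Rbm10#2 tumour there had 239712 cells, 65.0% of its guide's cells. Ambra1 guides held 10.8% of all cells in that mouse, beside 15.0% to 15.7% in the other KT mice.

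The last pair also lay in KT mice. The Rbm10#1 relative number was -2.04 in KT mouse 3, beside -2.29 to -2.26. The share of tumours holding 50% of the cells was 16.0% in KT mouse 2, beside 11.3% to 12.1%.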

How the results depend on the processing

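No paired analysis was possible because the mice of the genotypes share no numbers in the labels. Each group has 4 mice, so adjusted p-values sit close to the threshold, and leaving out a mouse leaves 35 splits. Subsets with 2 mice in a group (male mice, KPTC mice 1 and 2, KPTC mice 3 and 4) cannot go below an exact permutation p of 0.067 and gave values only, with all whole-lung concentration measures in the same direction. Leaving out near barcodes removed 0 tumours. Reads limit small tumours in KPTC mouse 1 most. Causes of the changes listed here were not tested.

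With 1 mouse left out, the guides past the threshold, relative size, numbered 0 to 7, those for relative burden 5 to 6 and those for relative 95th percentile 0 to 5. In whole-lung concentration, the percent of cells in the largest tumour differed by 11.0 to 23.4 points, in the 10 largest tumours by 31.6 to 43.1 and in the largest 1% of tumours by 30.9 to 41.5, the percent of tumours holding 50% of the cells by -12.2 to -10.6, and the Gini coefficient by 0.326 to 0.354. For guides of the 100 largest tumours: Ambra1 gave 18.0 to 22.7, Rb1 15.3 to 20.3, Apc 2.17 to 3.83, Rbm10 -6.58 to -3.92 and inert -39.0 to -33.0. Share of all cells: Ambra1 gave 13.5 to 21.7, Rb1 18.4 to 29.5, Rbm10 -9.65 to -6.32 and inert -36.8 to -32.7. Whole-lung and inert levels: log2 largest tumour gave 3.68 to 5.21, log2 inert log-normal mean size 0.36 to 0.57, log2 inert 95th percentile 0.89 to 1.26 and log2 inert 99th percentile 1.33 to 1.68. The Ambra1#3 relative number ran from -0.0048 to 0.28, the Rbm10#2 relative burden from -0.42 to 0.16 and the Rbm10#2 relative 95th percentile from -0.50 to 0.49, each reversed at 1 end.

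Minimum of 200 cells: 5 guides passed for relative number (0 at 500 cells), the relative number of Ambra1#1 (-0.48) and of Ambra1#3 (-0.091) and the 95th percentile of Rbm10#2 (0.86) reversed, and the share of the largest tumour (18.2 points) and the concentration within class of Ambra1 (36.7), Rb1 (42.7) and inert (17.0) passed. Minimum of 1000 cells: the relative number of Ambra1#2 reversed (0.041), 0 guides passed for the 95th percentile, and 4 levels passed, the largest tumour (4.56), inert mean size (0.80), 95th percentile (1.41) and 99th percentile (1.37). Minimum of 5000 cells: 0 guides passed for size and 0 for the 95th percentile, Rbm10#2 size (-0.090), Ambra1#2 number (1.36), Rbm10#1 number (0.78) and the log2 number of tumours (0.031) reversed, and the concentration calls ended (10 largest 27.8, largest 1% 21.0, tumours holding 50% of the cells -17.8, Gini coefficient 0.346). At least 10 reads: the largest tumour passed (18.8).

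Barcodes of 1 mouse only: 0 guides passed for the 95th percentile, Rbm10#2 burden (0.21) and the 100-largest shares of Apc (-0.25) and Rbm10 (0.25) reversed, and the largest tumour (11.1), the shares of all cells of Ambra1 (7.88), Rb1 (27.7) and inert (-33.7) and 4 levels (3.93, 0.47, 1.14 and 1.56, in the order given for 1000 cells) passed. Apc#1 missed the threshold for size (0.99) and burden (0.93) there, and Rbm10#1 passed for burden (1.10). Largest tumour left out: 0 guides passed for the 95th percentile without the largest tumour of each guide, and Rbm10#2 reversed there (0.10). Without the largest tumour of each mouse, the share of the largest tumour left (6.46) passed. Without the largest tumour of each class in a mouse, the shares of all cells of Ambra1 (16.0), Rb1 (21.1), Rbm10 (-7.19) and inert (-29.3) passed. The 95th percentile of Rbm10#2 also reversed without NT1 (0.052) and as a 90th percentile (0.55). Concentration within class passed with the largest 5% for Ambra1 (37.8), Rb1 (46.7) and inert (19.0). With the 50 largest tumours Apc reversed (-0.50) and Rbm10 passed (-11.5), as with the 200 largest (-0.625 and -3.50).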
